A study of Mus musculus with 11 samples.

Results

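The genes described here are 10 genes of fatty acid and triglyceride synthesis: Srebf1, Acly, Acaca, Fasn, Scd1, Elovl6, Thrsp, Gpam, Dgat2 and Pnpla3. They were listed by name as lipogenic genes, and a gene counted where a row of the deposited array table was annotated to it alone. Of the 10 listed genes, 9 had such a row, out of 30142 genes with a named row in the whole table. Srebf1, the transcription factor of the pathway, had none: its row was annotated to Mir6922 as well, so no value is given for it. Scd1 had 2 such rows, and the brighter on average is described.

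The liver makes new fatty acids from carbohydrate when food is plentiful. Citrate leaves the mitochondria and is split to acetyl-CoA, acetyl-CoA is carboxylated to malonyl-CoA, and fatty acid synthase joins these units to palmitate. Palmitate is then lengthened and desaturated, and the fatty acids are joined to glycerol to give triglyceride, which is stored in droplets or exported in lipoproteins. The SREBP-1c form encoded by Srebf1, together with ChREBP and the liver X receptors, drives most of these genes after feeding and insulin, and their transcripts fall on fasting and vary with the time of day.

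RNA came from hepatocytes of 12-week-old male mice of 4 genotypes, hybridised to 11 whole-transcript arrays. Double KO hepatocytes (n = 3) carried the liver-specific Nemo knockout, which the labels call NemoLPC-KO, together with a Cxcr6 knockout. Nemo KO hepatocytes (n = 3) carried the liver-specific Nemo knockout alone, and Cxcr6 KO hepatocytes (n = 3) the Cxcr6 knockout alone. Wildtype hepatocytes (n = 2) carried neither. The source names give 2 lines: double KO (Cre-positive) and Cxcr6 KO (Cre-negative) belong to Nemo_CXCR6, and Nemo KO (Cre-positive) and wildtype (Cre-negative) to Nemo. Comparisons of Nemo deletion are thus made inside a single line. They also set Cre-positive against Cre-negative groups, so an effect of Nemo loss cannot be told apart from one of Cre. An effect of Cxcr6 loss cannot be told apart from one of the line. The labels do not name the promoter behind Cre. Nemo, encoded by Ikbkg, is the scaffold protein through which IkB kinase switches on NF-kB, and Cxcr6 is a chemokine receptor of T and NKT cells. The titles number the replicates as biological without saying that each is a separate mouse, so the p-values measure the spread between these arrays.

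Values are log2 signals, so a difference of 1 is a doubling. The values of the table ran from 1.79 to 19.93, and the median of its row means was 5.27, near which a row can hardly be told from background. Within a genotype, arrays correlated at 0.990 to 0.995 over all rows in the knockout groups and at 0.984 for the wildtype pair. The 9 hepatocyte markers averaged 17.73 to 17.90 on double KO arrays, 17.72 to 17.83 on Nemo KO arrays, 17.92 to 18.01 on Cxcr6 KO arrays and 17.89 to 17.90 on wildtype arrays, with Alb at 19.82 or more and Apoa2 at 19.71 or more on every array. Ikbkg ran from 8.76 to 9.49 on double KO arrays, 9.18 to 9.45 on Nemo KO arrays, 9.12 to 9.18 on Cxcr6 KO arrays and 9.02 to 9.47 on wildtype arrays. Cxcr6 lay between 4.94 and 5.56 on all arrays. The labels do not say whether these rows cover the deleted parts, and the rows therefore check nothing about the genotypes. The 2 wildtype arrays stood apart from each other in the lipogenic genes, and every result against wildtype below is also given with each wildtype array alone.

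Because most of the measured genes moved together from array to array, stretches just upstream of 4 of them are shown for the motifs through which SREBP and its partner NF-Y are known to act. Fasn, Gpam and Thrsp are shown because their windows hold matches, and Acly, which followed the other genes most closely, because its window holds none. Each is the 200 bases before the transcription start in RefSeq (GRCm38.p6), written 5′ to 3′ on the gene's strand, in lower case with motif matches in capitals. Fasn lies at chr11:120824548-120824747 (minus strand), Gpam at chr19:55127239-55127438 (minus strand, the upstream of its starts), Thrsp at chr7:97417551-97417750 (minus strand) and Acly at chr11:100528001-100528200 (minus strand).
Fasn: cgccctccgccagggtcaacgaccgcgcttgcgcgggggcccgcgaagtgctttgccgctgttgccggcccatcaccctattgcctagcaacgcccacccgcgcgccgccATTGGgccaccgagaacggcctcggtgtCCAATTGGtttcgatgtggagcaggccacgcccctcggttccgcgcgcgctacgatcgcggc
Gpam: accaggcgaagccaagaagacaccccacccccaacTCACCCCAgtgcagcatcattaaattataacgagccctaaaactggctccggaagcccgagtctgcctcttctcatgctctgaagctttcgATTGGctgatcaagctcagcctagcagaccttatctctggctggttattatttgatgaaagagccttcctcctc
Thrsp: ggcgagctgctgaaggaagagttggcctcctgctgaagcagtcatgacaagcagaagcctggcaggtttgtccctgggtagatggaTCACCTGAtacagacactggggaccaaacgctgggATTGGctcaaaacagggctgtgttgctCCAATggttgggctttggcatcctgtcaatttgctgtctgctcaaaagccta
Acly: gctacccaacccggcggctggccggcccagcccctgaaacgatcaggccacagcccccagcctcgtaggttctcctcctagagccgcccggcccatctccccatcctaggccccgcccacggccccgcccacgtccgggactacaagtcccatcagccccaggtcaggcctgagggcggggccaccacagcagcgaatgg
The motifs searched, on both strands, were CCAAT (the NF-Y box, ATTGG on the other strand), TCACCCCA (the core of a sterol regulatory element), CACGTG (an E-box) and TCACNTGA (an E-box-like palindrome, which can share letters with CACGTG). Fasn had the NF-Y box 62 bases before the start and, on the other strand, 90 and 59 bases before it, the matches at 62 and 59 overlapping. Gpam had it on the other strand at 74 and a TCACCCCA match at 165. Thrsp had it at 52 and, on the other strand, at 79, with TCACNTGA at 114. The promoter table held 8 of the listed genes with 11 windows in all, since Srebf1 and Gpam have more than 1 start. CCAAT occurred in 6 of the 11 windows (of Srebf1, Fasn, Thrsp, Gpam and Pnpla3), against 29.3% of 32851 promoter windows of the same length. TCACCCCA occurred in 1 of the 11 windows, against 1.06%, TCACNTGA in 1, against 2.94%, and CACGTG in 0, against 5.26%. The windows of Acly, Acaca and Elovl6, the downstream Gpam start and 1 Srebf1 start held no match. A match describes the letters only.

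Acly, ATP-citrate lyase, which makes the cytosolic acetyl-CoA, had log2 signals of 13.54, 13.77 and 12.36 in double KO hepatocytes, 12.76, 12.86 and 12.43 in Nemo KO, 13.16, 13.54 and 13.38 in Cxcr6 KO, and 10.78 and 14.23 in wildtype. The lowest and the highest of the 11 values were both wildtype. Acaca, acetyl-CoA carboxylase, the committed step, had 12.45, 12.30 and 11.92 in double KO, 11.81, 12.26 and 11.51 in Nemo KO, 11.86, 12.32 and 12.04 in Cxcr6 KO, and 11.23 and 12.32 in wildtype. Fasn, fatty acid synthase, had 14.76, 14.65 and 13.27 in double KO, 13.90, 14.00 and 12.99 in Nemo KO, 13.73, 14.42 and 14.35 in Cxcr6 KO, and 11.78 and 14.10 in wildtype. Only Acly in Nemo KO and Cxcr6 KO gave non-overlapping genotypes among these 3 genes, with Nemo KO lower. That pair of genotypes is not among the comparisons made, and the share of all tested genes with this order was not computed. In all 3 genes, wildtype replicate 1 was the lowest array. The third double KO and the third Nemo KO arrays were the lowest of their groups. Group means of Fasn were 14.23 ± 0.83 in double KO, 13.63 ± 0.56 in Nemo KO, 14.17 ± 0.38 in Cxcr6 KO (SD, n = 3 each) and 12.94 ± 1.64 in wildtype (SD, n = 2).

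Elovl6, which lengthens palmitate to stearate, had 15.36, 14.54 and 13.81 in double KO, 13.81, 14.42 and 13.17 in Nemo KO, 13.58, 14.47 and 14.37 in Cxcr6 KO, and 12.08 and 13.94 in wildtype. Its highest array was double KO replicate 1 and its lowest wildtype replicate 1. Scd1, stearoyl-CoA desaturase, had 19.72, 19.64 and 19.63 in double KO, 19.57, 19.61 and 19.59 in Nemo KO, 19.58, 19.67 and 19.64 in Cxcr6 KO, and 18.47 and 19.88 in wildtype. These values lie just under the ceiling of the table at 19.93, where differences are compressed. A dimmer Scd1 row, added after the data were seen, had 17.25, 17.08 and 16.92 in double KO, 16.92, 16.97 and 16.45 in Nemo KO, 16.72, 16.95 and 16.75 in Cxcr6 KO, and 15.02 and 17.40 in wildtype. In both Scd1 rows the wildtype arrays were again the lowest and the highest of the 11.

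Thrsp, Spot 14, a small protein induced by thyroid hormone and carbohydrate that accompanies lipogenesis, had another pattern. Its log2 signals were 14.65, 14.62 and 10.08 in double KO, 13.55, 12.86 and 13.63 in Nemo KO, 15.76, 15.62 and 16.07 in Cxcr6 KO, and 12.36 and 14.31 in wildtype. All 3 Cxcr6 KO arrays lay above the 8 other arrays, and double KO replicate 3 lay far below the rest. Among all 18337 tested genes, 5.89% had all Cxcr6 KO arrays above the 8 others, and Thrsp was the 1 of the 9 genes that did.

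Of the genes that build triglyceride, Gpam, the mitochondrial glycerol-3-phosphate acyltransferase that adds the first fatty acid to glycerol, had 15.08, 15.03 and 13.65 in double KO, 14.46, 14.61 and 13.81 in Nemo KO, 14.34, 14.43 and 14.67 in Cxcr6 KO, and 12.53 and 14.59 in wildtype. It followed Acly and Fasn, with overlapping genotypes and wildtype replicate 1 lowest. Dgat2, the diacylglycerol acyltransferase that adds the last fatty acid, had 15.10, 14.89 and 14.35 in double KO, 15.07, 15.02 and 14.97 in Nemo KO, 15.77, 16.34 and 16.50 in Cxcr6 KO, and 15.88 and 15.64 in wildtype. All 6 arrays with Nemo deletion lay below all 5 without it, as did 7.12% of the tested genes, and Dgat2 was the 1 of the 9 genes with that order. Pnpla3, a lipase-like protein of lipid droplets, had 5.93, 5.80 and 5.01 in double KO, 5.50, 5.32 and 5.36 in Nemo KO, 5.4, 4.99 and 5.4 in Cxcr6 KO, and 5.18 and 6.83 in wildtype. Apart from wildtype replicate 2, these values lie close to the median row of the arrays, where little can be read from them.

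**Figure D1:**
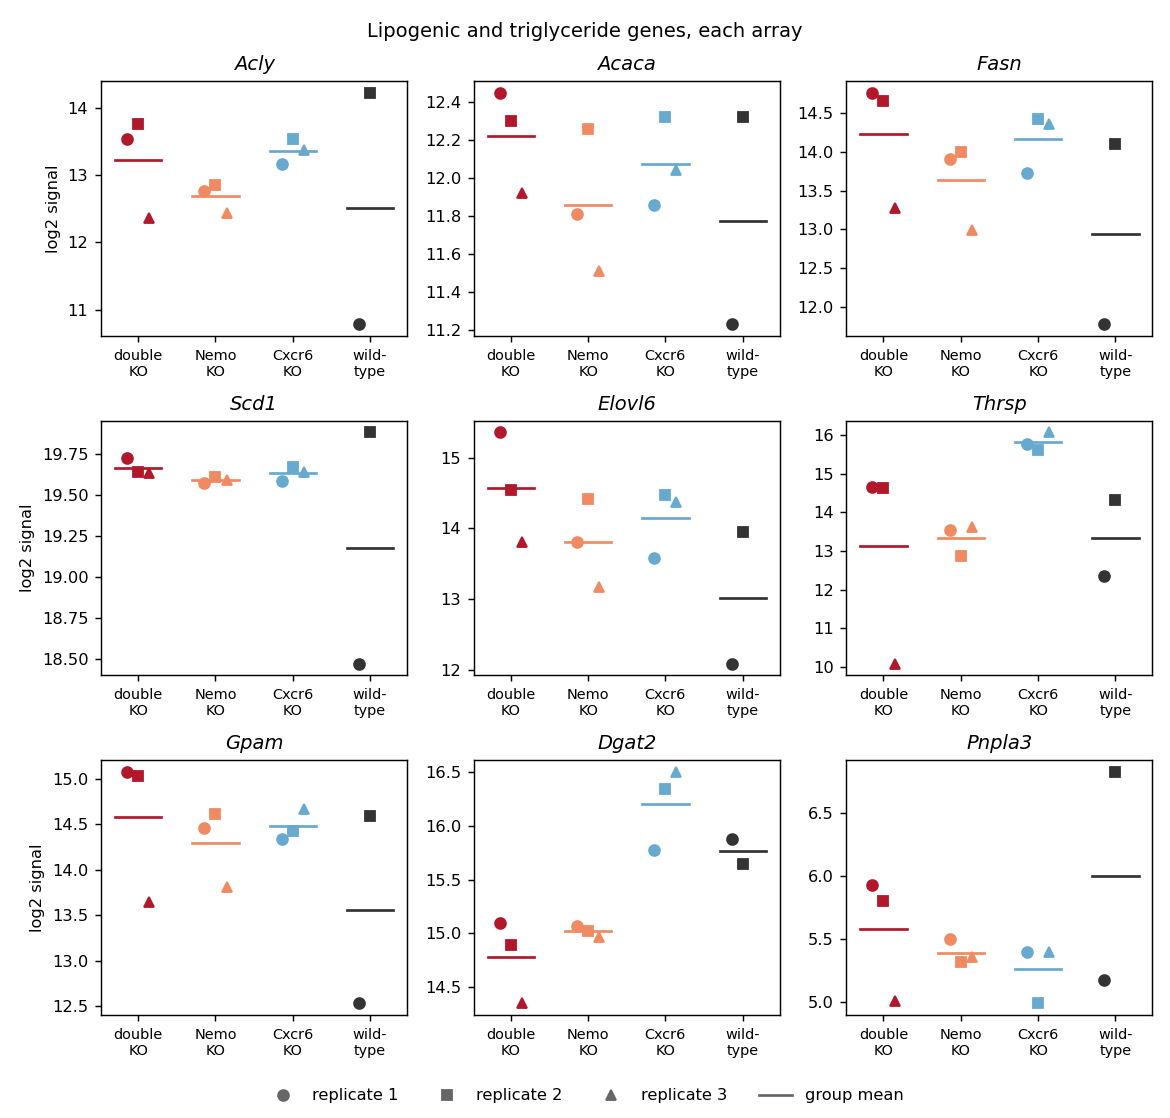
Log2 signal (vertical axis, its own range for each gene) of the 9 genes on each array, by genotype; markers give the replicate number and lines the group means. Wildtype replicate 1 was the lowest array for 6 genes, while Dgat2 separated the arrays with Nemo deletion from those without and Thrsp was highest in Cxcr6 KO.

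In order of group means, double KO stood highest for Acaca, Fasn, Scd1, Elovl6 and Gpam, followed by Cxcr6 KO, Nemo KO and wildtype, and for Acly Cxcr6 KO stood highest with the rest in the same order. In these 6 genes no neighbours in the order differed beyond the spread of their arrays. For Thrsp the order was Cxcr6 KO (15.82 ± 0.23), Nemo KO (13.35 ± 0.43), wildtype (13.34 ± 1.38) and double KO (13.12 ± 2.63), with a gap between arrays only below Cxcr6 KO. For Dgat2 it was Cxcr6 KO (16.20 ± 0.38), wildtype (15.76 ± 0.17), Nemo KO (15.02 ± 0.05) and double KO (14.78 ± 0.39), with a gap only between wildtype and Nemo KO (SD, n = 3, wildtype n = 2).

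Set against its own mean over the 11 arrays, the median deviation of the 9 genes was 0.56, 0.58 and -0.54 in double KO, -0.15, 0.06 and -0.48 in Nemo KO, 0.04, 0.51 and 0.40 in Cxcr6 KO, and -1.59 and 0.32 in wildtype. Double KO, Nemo KO and wildtype each held arrays above and below the mean. As a description over 11 arrays, with library and mouse shared by all genes, Acly correlated at 0.96 with the mean of the other 8 genes, Fasn at 0.94, Gpam at 0.92, Acaca at 0.85, Elovl6 at 0.81, Scd1 at 0.75 and Thrsp at 0.61. Without the wildtype arrays (n = 9) the values were 0.94 for Acly, 0.93 for Fasn, 0.88 for Gpam, 0.69 for Acaca, 0.74 for Elovl6, 0.60 for Scd1 and 0.65 for Thrsp. Pnpla3 correlated at 0.43 in both sets of arrays. Dgat2 correlated at 0.08 over 11 arrays and at 0.42 without wildtype. It was the lowest of the 9 genes in both sets, though close to Pnpla3 without the wildtype arrays.

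**Figure D2:**
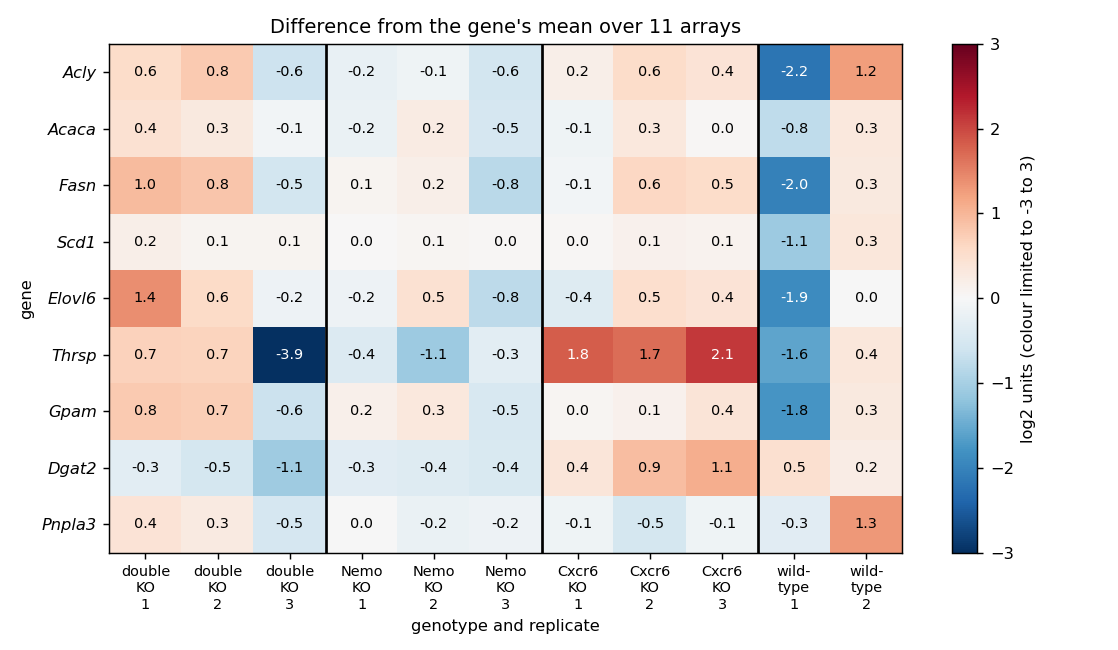
Log2 difference of each gene (rows) on each array (columns, by genotype and replicate) from that gene's mean over the 11 arrays; red is above and blue below the mean, with colour limited at 3. Most of the column of wildtype replicate 1 is blue, and Dgat2 is above its mean there. The largest deviation is that of Thrsp on double KO replicate 3 (-3.88), followed by that of Acly on wildtype replicate 1 (-2.2). Thrsp is above its mean on every Cxcr6 KO array.

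The genes most alike in pattern, by Pearson correlation over the 11 arrays with the mean of the 9 standardised genes, were Birc3 (0.97), Acss2 (0.96), Acacb (0.94), Rdh11 (0.94), Cyp2r1 (0.91) and Fdps (0.90). Over the 9 arrays without wildtype the correlations were 0.92 for Birc3, 0.94 for Acss2, 0.87 for Acacb, 0.88 for Rdh11, 0.83 for Cyp2r1 and 0.89 for Fdps. Acss2, an acetyl-CoA synthetase, had 11.45, 11.08 and 10.20 in double KO, 10.49, 10.58 and 9.87 in Nemo KO, 10.69, 10.88 and 10.95 in Cxcr6 KO, and 8.22 and 11.42 in wildtype. Its arrays rank much as those of Acly do, with wildtype replicate 1 lowest and the third double KO and Nemo KO arrays lowest in their groups. Birc3, an inhibitor of apoptosis, moved in a narrower range, between 7.51 on wildtype replicate 1 and 8.25 on wildtype replicate 2.

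**Figure D3:**
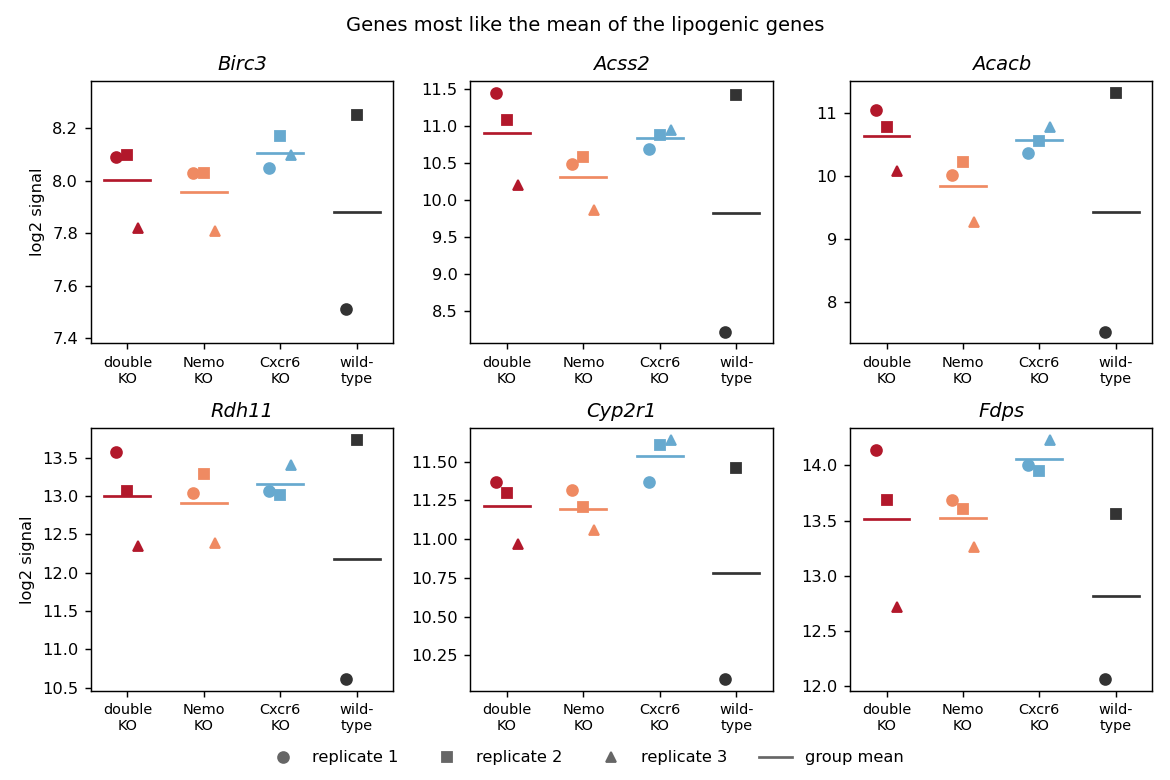
Log2 signal of the 6 genes whose pattern over the 11 arrays was most like the mean of the lipogenic genes, by genotype, with replicate numbers as markers and group means as lines. In each of them wildtype replicate 1 is the lowest array.

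Double KO against Cxcr6 KO asks what Nemo deletion, together with Cre, changed in mice lacking Cxcr6, within a line. Dgat2 was lower in double KO, by 2.68-fold (log2 fold change -1.42 ± 0.22 SE, 95% interval -1.92 to -0.92, adjusted p = 0.014 in limma over all tested genes, 3 arrays against 3). It was the 1 of 9 genes past the 5% threshold, and 7.41% of all tested genes passed it, 3.44% higher and 3.96% lower. Thrsp was 13.12 ± 2.63 in double KO against 15.82 ± 0.23 in Cxcr6 KO (SD, n = 3 each), a log2 fold change of -2.70 ± 1.09 (95% interval -5.16 to -0.25) that did not pass the threshold (adjusted p = 0.14). Dgat2 and Thrsp were the 2 genes with no overlap between the groups, both lower, an order seen in 24.4% of tested genes, against 13.3% with no overlap and higher. They were also the 2 with an unadjusted p under 0.05, as were 29.1% of tested genes.

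The other genes gave small differences between double KO and Cxcr6 KO with wide intervals. Acly differed by -0.14 ± 0.73, Acaca by 0.15 ± 0.29, Fasn by 0.06 ± 0.61 (95% interval -1.30 to 1.43) and Gpam by 0.11 ± 0.53. Elovl6 differed by 0.43 ± 0.56, Scd1 by 0.04 ± 0.28 and Pnpla3 by 0.31 ± 0.39, and the adjusted p of these 7 genes was 0.628 or more. The median of the 9 log2 fold changes was 0.06, against -0.06 over all tested genes. For Dgat2 the call was lost when Cxcr6 KO replicate 2 (log2 fold change -1.35, adjusted p = 0.0549) or replicate 3 (-1.27, adjusted p = 0.0616) was left out, and Thrsp without double KO replicate 3 differed by -1.19.

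Markers of other cells moved in the same comparison, where 3.44% of all tested genes passed 5% as higher and 3.96% as lower. The mean of the 8 endothelial markers was 8.61 to 9.53 on double KO arrays against 6.60 to 7.38 on Cxcr6 KO arrays, and 8 of 8 passed 5% as higher. The 8 macrophage markers averaged 8.52 to 9.53 against 7.10 to 7.48 (4 of 8 higher past 5%), the 9 stellate cell markers 7.15 to 8.06 against 5.99 to 6.21 (7 of 9), and the 6 cholangiocyte markers 6.39 to 7.16 against 5.89 to 6.03 (3 of 5 tested). The hepatocyte marker mean was lower on every double KO array (17.73 to 17.90) than on any Cxcr6 KO array (17.92 to 18.01), with 0 of 9 genes past 5%. Several of these markers, Alb and Apoa2 among them, lie near the ceiling of 19.93, where differences are compressed and can be hidden. In these bulk samples fewer cells of a type and less RNA per cell cannot be told apart, and the part of other cells in the Dgat2 result was not tested. The brightest markers of these lists were Ptprb and Clec4g, Mrc1 and Vsig4, Dcn and Bgn, and Pkhd1 and Sox9. Adipocytes also express most of the lipogenic genes. Their 6 markers, with Nrg4 and Fabp4 the brightest, averaged 5.50 to 5.98 in double KO against 5.69 to 5.86 in Cxcr6 KO, 1 of 3 tested passed 5% as higher, and the defining markers Adipoq and Plin1, named here after their values were seen, lay below the median row mean of 5.27 on every array. The 9 lymphocyte markers, with Nkg7 and Cd3g the brightest, averaged 4.76 to 4.82 against 4.87 to 4.94, and 7 of them lay below that median on every array.

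Clock genes also moved between these groups. Dbp, an output gene of the clock, had 6.60, 9.79 and 6.42 in double KO, 7.49, 8.37 and 7.51 in Nemo KO, 9.90, 11.55 and 11.10 in Cxcr6 KO, and 7.12 and 7.75 in wildtype. Arntl, its core activator, had 10.48, 7.93 and 10.56 in double KO, 9.47, 8.36 and 9.52 in Nemo KO, 7.39, 6.69 and 6.93 in Cxcr6 KO, and 9.94 and 10.51 in wildtype. Cxcr6 KO thus had the highest Dbp and the lowest Arntl of the 4 genotypes, as it had the highest Thrsp. Between double KO and Cxcr6 KO, Dbp fell by 3.25 ± 0.83 (adjusted p = 0.0482) and Arntl rose by 2.65 ± 0.65 (adjusted p = 0.0438) in limma. Of 14 clock genes 5 passed 5%, against 7.41% of all tested genes. The part of the time of day in the results for Thrsp and Dgat2 was not tested, and the labels give no time of collection.

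Of the genes around the pathway, single members passed 5% in double KO against Cxcr6 KO, where 7.41% of all tested genes did. Me1, malic enzyme, which supplies NADPH for fatty acid synthesis, had 15.11, 14.42 and 14.19 in double KO against 16.01, 16.53 and 16.20 in Cxcr6 KO and fell by 1.68 ± 0.26 (adjusted p = 0.0139), the 1 of 10 tested genes of precursor and NADPH supply to pass. Like Thrsp, Me1 was highest in Cxcr6 KO, with 14.98, 14.61 and 14.57 in Nemo KO and 14.37 and 15.00 in wildtype. Insig2, which holds the SREBP precursor in the endoplasmic reticulum, had 15.66, 14.57 and 16.32 in double KO against 13.77, 12.83 and 13.12 in Cxcr6 KO and rose by 2.28 ± 0.45 (adjusted p = 0.0238), 1 of 15 tested regulators. Elovl7, an elongase, rose by 1.17 ± 0.24 (adjusted p = 0.0246), 1 of 10 elongation and desaturation genes. None of the 14 other glycerolipid genes passed in limma, and 0 of them had an unadjusted p under 0.05; the smallest p was that of Gpat4 (-0.51 ± 0.24, adjusted p = 0.197).

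Among 20 tested genes of lipid droplets and their breakdown, 1 rose and 3 fell past 5%. Of all tested genes 3.44% rose and 3.96% fell. Hsd17b13, a droplet protein of hepatocytes, had 17.80, 17.81 and 17.98 in double KO against 17.20, 17.17 and 17.18 in Cxcr6 KO and rose by 0.68 ± 0.10 (adjusted p = 0.0113). Pnpla2, adipose triglyceride lipase, had 8.87, 8.89 and 8.88 in double KO against 9.21, 9.75 and 9.95 in Cxcr6 KO and fell by 0.76 ± 0.16 (adjusted p = 0.0307). Lipe, hormone-sensitive lipase, fell by 0.62 ± 0.13 (adjusted p = 0.0312), and Fitm1, a protein of droplet formation, by 2.17 ± 0.48 (adjusted p = 0.0318). The group means of both lipases were higher in Cxcr6 KO than in each other genotype. Of 7 tested fasting genes, Pdk4, which restrains pyruvate oxidation, had 11.84, 10.09 and 14.36 in double KO against 8.18, 8.55 and 7.71 in Cxcr6 KO and rose by 3.95 ± 1.00 (adjusted p = 0.0476). Each of these calls was lost in some of the 21 alternative fits: in 1 for Hsd17b13, 3 each for Me1, Insig2 and Elovl7, 6 each for Pnpla2 and Lipe, 8 for Fitm1, 10 each for Pdk4 and Dbp and 9 for Arntl.

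Double KO against Nemo KO asks what Cxcr6 loss, together with the line, changed where Nemo was deleted. None of the 9 genes passed 5% in limma, where 0.594% of tested genes did, and 0 had an unadjusted p under 0.05, against 16.8% of tested genes. The log2 fold changes were 0.54 ± 0.73 for Acly, 0.37 ± 0.29 for Acaca, 0.60 ± 0.61 for Fasn and 0.77 ± 0.56 for Elovl6. Those of Gpam (0.30 ± 0.53), Pnpla3 (0.19 ± 0.39), Thrsp (-0.23 ± 1.09) and Dgat2 (-0.24 ± 0.22, 95% interval -0.74 to 0.26) were no clearer, with adjusted p of 0.5 or more in all. Scd1 (0.08 ± 0.28) was the 1 gene without overlap, higher on every double KO array by a small margin near the ceiling. The same order held for 12.9% of tested genes (9.94% were lower without overlap). The dimmer Scd1 row overlapped, with 17.25, 17.08 and 16.92 in double KO against 16.92, 16.97 and 16.45 in Nemo KO. The direction for Thrsp rested on double KO replicate 3, without which the difference was 1.29 (adjusted p = 0.362). The median of the 9 genes was 0.30, against 0.04 over all genes, and centring each array on its median raised every such difference by 0.11.

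None of the surrounding pathway genes passed 5% in double KO against Nemo KO. The smallest p of the droplet list was that of Cd36, a fatty acid transporter, with 14.45, 14.56 and 14.08 in double KO against 12.47, 13.02 and 13.08 in Nemo KO, a difference of 1.5 ± 0.32 (adjusted p = 0.0758). Cd36 is also made by endothelial cells and macrophages. The endothelial marker mean was 8.61 to 9.53 on double KO arrays against 7.72 to 8.27 on Nemo KO arrays. The macrophage marker mean overlapped, with 8.52 to 9.53 against 7.58 to 9.04. The part of these cells in the Cd36 value was not tested. The smallest p elsewhere belonged to Nr0b2 (1.22 ± 0.49, adjusted p = 0.265), Slc2a2 (0.38 ± 0.29, 0.514), Tecr (-0.47 ± 0.17, 0.219), Agpat5 (0.34 ± 0.13, 0.254) and G6pc (-0.21 ± 0.18, 0.565).

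**Figure D4:**
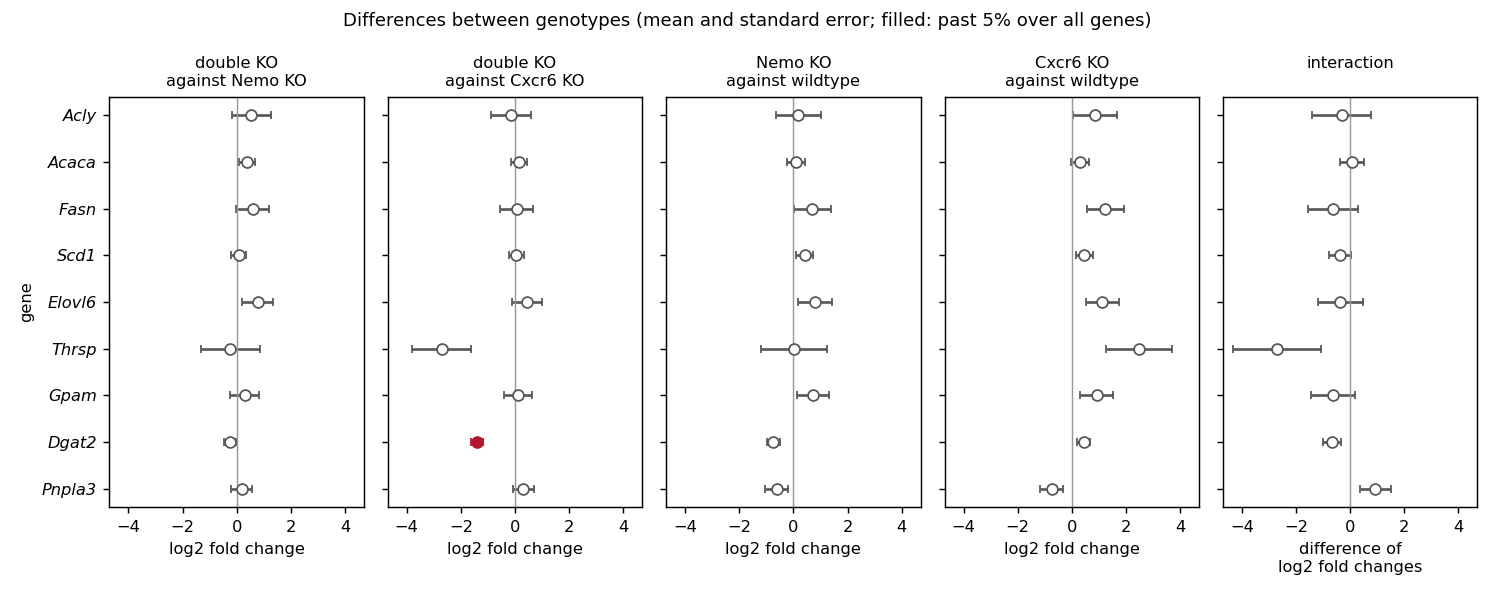
Log2 fold change of the 9 genes (horizontal axis) with its standard error in the 4 comparisons, and the interaction as a difference of log2 fold changes; filled points passed 5% over all tested genes. Dgat2 in double KO against Cxcr6 KO, at -1.42, is the 1 filled point.

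Nemo KO against wildtype asks what Nemo deletion, together with Cre, changed where Cxcr6 was intact. None of the 9 genes passed 5% in limma, where 0.158% of tested genes did, and 1, Dgat2, had an unadjusted p under 0.05, against 24.6% of tested genes. Dgat2 was 15.02 ± 0.05 in Nemo KO (SD, n = 3) against 15.76 ± 0.17 in wildtype (SD, n = 2), a log2 fold change of -0.74 ± 0.25 (95% interval -1.30 to -0.18, adjusted p = 0.116). It was the 1 gene without overlap, lower, as were 24.7% of tested genes (11.3% were higher without overlap).

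Markers of other cells lay higher in Nemo KO than in wildtype as well, with 0 of them past 5%. Of all tested genes, 11.3% were higher and 24.7% lower without overlap between these groups. The endothelial marker mean was 7.72 to 8.27 in Nemo KO against 7.30 to 7.42 in wildtype, with 7 of 8 genes higher without overlap, and the stellate mean 6.86 to 7.0 against 6.15 to 6.60, with 8 of 9. The macrophage mean was 7.58 to 9.04 against 6.76 to 7.79, with 3 of 8 higher without overlap. The hepatocyte mean was 17.72 to 17.83 against 17.89 to 17.90, with 2 of 9 lower without overlap, near the share over all tested genes. Of single markers named after their values were seen, the macrophage gene Lyz2 differed by 2.01 ± 0.50 (adjusted p = 0.0764 in limma). The hepatocyte transcription factor Hnf4a differed by -0.84 ± 0.20 (adjusted p = 0.0736 in limma). Both were the extremes of their lists. The 9 hepatocyte markers had a median log2 fold change of -0.04 (-0.84 to 0.15), with 3 higher and 6 lower. The 8 macrophage markers had a median of 0.69 (0.59 to 2.01). The part of these markers in the Dgat2 value was not tested.

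The other log2 fold changes of lipogenic genes in Nemo KO against wildtype were 0.18 ± 0.82 for Acly, 0.08 ± 0.33 for Acaca, 0.69 ± 0.68 for Fasn, 0.41 ± 0.31 for Scd1 and 0.79 ± 0.62 for Elovl6. Thrsp (0.01 ± 1.22), Gpam (0.73 ± 0.60) and Pnpla3 (-0.62 ± 0.43) were as uncertain, all with adjusted p of 0.421 or more. The median of the 9 genes was 0.18, against -0.04 over all genes.

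In the surrounding lists no gene passed 5% between Nemo KO and wildtype. G6pc, glucose-6-phosphatase, had 18.45, 18.72 and 18.67 in Nemo KO against 17.92 and 17.65 in wildtype, a difference of 0.83 ± 0.20 (adjusted p = 0.0736). Cidec, which fuses lipid droplets, had 7.64, 7.30 and 7.20 in Nemo KO against 5.64 and 5.44 in wildtype, a difference of 1.84 ± 0.56 (adjusted p = 0.0959). Neither gene's groups overlapped, and the other smallest p in the lists were those of Usf2 (-0.52 ± 0.15, adjusted p = 0.087), Pklr (-0.84 ± 0.39, 0.223), Hsd17b12 (0.40 ± 0.20, 0.241) and Agpat5 (-0.36 ± 0.15, 0.173).

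Cxcr6 KO against wildtype asks what Cxcr6 loss, together with the line, changed with Nemo intact. None of the 9 genes passed 5% in limma, where 0.256% of tested genes did, and 0 had an unadjusted p under 0.05, against 11.1% of tested genes. The mean was higher in Cxcr6 KO for 8 of 9 genes, with a median log2 fold change of 0.86 against 0.01 over all genes. Thrsp differed most, by 2.48 ± 1.22 (95% interval -0.26 to 5.23, adjusted p = 0.505), and it was the 1 gene without overlap, higher, as were 12.7% of tested genes (11.2% were lower without overlap). The others were Fasn (1.23 ± 0.68), Elovl6 (1.13 ± 0.62), Gpam (0.92 ± 0.60), Acly (0.86 ± 0.82), Scd1 (0.46 ± 0.31), Dgat2 (0.44 ± 0.25), Acaca (0.30 ± 0.33) and Pnpla3 (-0.74 ± 0.43), with adjusted p of 0.563 or more. The comparison shares its wildtype arrays with Nemo KO against wildtype. Of the surrounding genes none passed 5%, and the smallest p belonged to Hsd17b13 (-0.62 ± 0.11, adjusted p = 0.0782), Me1 (1.56 ± 0.29, 0.0921), Gpat4 (0.80 ± 0.27, 0.299), Angptl4 (1.37 ± 0.56, 0.4), Insig2 (-1.23 ± 0.51, 0.409) and Elovl7 (-0.59 ± 0.26, 0.459).

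The 2 wildtype arrays differed more in the lipogenic genes than in most others. Wildtype replicate 2 minus replicate 1 was 3.45 for Acly, 2.32 for Fasn, 2.06 for Gpam, 1.95 for Thrsp and 1.87 for Elovl6. It was 1.65 for Pnpla3, 1.41 for Scd1, 1.09 for Acaca and -0.24 for Dgat2. So 8 of the 9 genes differed by over 1 between the wildtype arrays, against 6.54% of all tested genes. The proliferation marker Mki67, also named after its values were seen, was 5.35 on wildtype replicate 1 and 11.18 on replicate 2, and the cell cycle list averaged 5.69 and 7.82. Insig1, a feedback target of SREBP chosen here after its values were seen, was 13.36 on wildtype replicate 1 and 15.42 on replicate 2, with the other 9 arrays between 13.88 and 15.75. What set these arrays apart was not tested.

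For many of the genes the direction against wildtype depended on which wildtype array was used. For Nemo KO against wildtype replicate 1 alone, 8 of 9 genes were higher in Nemo KO (median 1.12, between -0.86 and 1.91). Against wildtype replicate 2 alone, all 9 were lower in Nemo KO (median -0.47, between -1.55 and -0.14). For Cxcr6 KO against wildtype replicate 1 alone, 9 of 9 were higher (median 1.95, between 0.09 and 3.46). Against replicate 2 alone, 4 were higher and 5 lower (median -0.11, between -1.57 and 1.51). These fits assume that the lone wildtype array varies like the arrays of the other groups, so effect sizes alone are given here. Dgat2 kept its direction with either array, at -0.86 and -0.62 in Nemo KO against wildtype replicates 1 and 2, and at 0.32 and 0.56 in Cxcr6 KO. In Cxcr6 KO, Thrsp (3.46 and 1.51), Fasn (2.39 and 0.07) and Elovl6 (2.06 and 0.20) also stayed higher against either array.

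**Figure D5:**
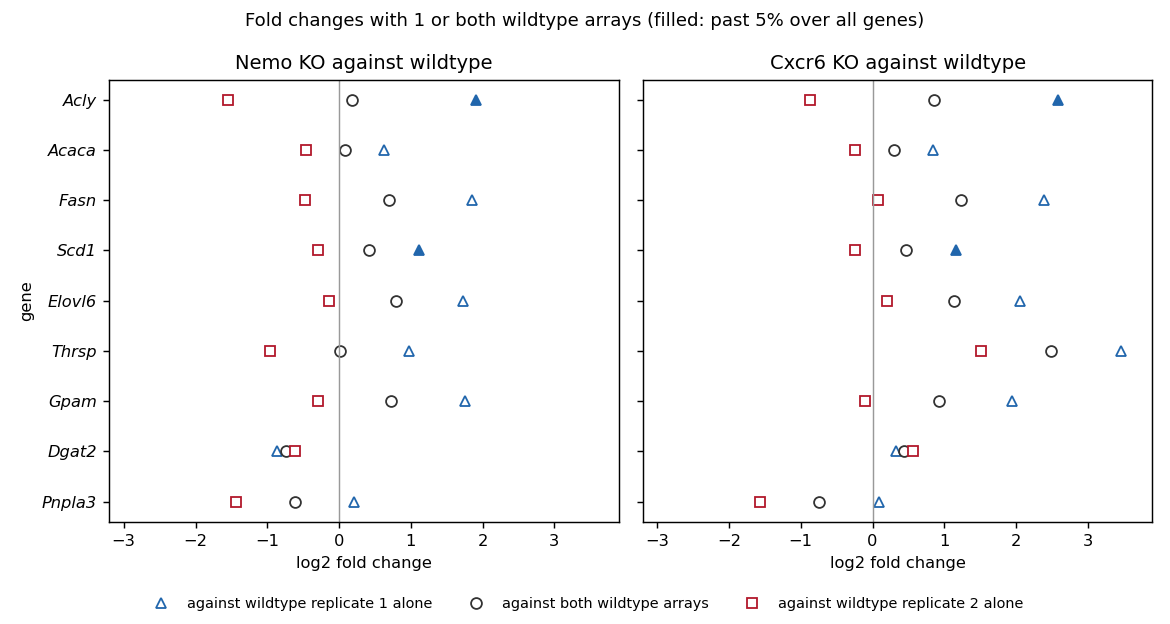
Log2 fold change of the 9 genes (horizontal axis) in Nemo KO and in Cxcr6 KO against wildtype replicate 1 alone (triangles), both wildtype arrays (circles) and replicate 2 alone (squares); filled markers passed 5% over all tested genes. For most genes triangles and squares lie on opposite sides of 0 in Nemo KO, while the Dgat2 markers lie close together.

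The interaction asks whether Nemo deletion acted differently with and without Cxcr6, which cannot be told apart from a difference between the lines. It is the difference double KO minus Cxcr6 KO less the difference Nemo KO minus wildtype. None of the 9 genes passed 5% in limma, nor did any tested gene (0%), and 0 of the 9 had an unadjusted p under 0.05, against 11.8% of tested genes. For Dgat2 the difference of the 2 effects was -0.68 ± 0.33 (95% interval -1.43 to 0.07, adjusted p = 0.46), so a call in the Nemo_CXCR6 line and none in the Nemo line does not show that the effects differ. The interaction was -2.71 ± 1.63 for Thrsp (adjusted p = 0.526) and 0.93 ± 0.58 for Pnpla3 (adjusted p = 0.535), and lay between -0.63 and 0.07 for the 6 others. It was computed with all 4 groups, so it depends on the wildtype arrays too. Without wildtype replicate 1 the median of the 9 genes was 0.53, and without replicate 2 it was -1.30, with Scd1 at -1.09. In the surrounding lists the smallest p belonged to Me1 (-1.71 ± 0.39, adjusted p = 0.251), Hsd17b13 (0.53 ± 0.15, 0.266), Elovl7 (1.02 ± 0.35, 0.339), Agpat5 (0.54 ± 0.20, 0.356), Insig2 (1.27 ± 0.68, 0.478) and G6pc (-0.49 ± 0.27, 0.485).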

How the data were processed

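Hepatocyte RNA (300 ng of total RNA per sample, whole-transcript kit, per the labels' protocols) was measured on 11 arrays. The deposited values are log2 signals that the authors made with Affymetrix Expression Console, RMA and Transcriptome Analysis Console, per the submitters' processing notes, which give no versions. RMA corrects background, normalizes quantiles and summarises probes, so signals near the floor and the ceiling are compressed. Arrays carry no read depth, and their number limits the precision.

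Of 65956 rows, 30604 had 1 gene symbol, 2146 several and 33206 none in the platform annotation. Symbols were updated through gene identifiers against RefSeq GRCm38.p6 (22818 rows matched, 827 symbols changed). Per gene the row with the highest mean was used (355 of 30142 genes had more than 1). A gene entered the test if at least 1 group averaged 5.27, the median row mean, or more; this left 18337 genes, all 9 lipogenic genes with a row among them. A mean per group was fitted to all 11 arrays with limma 3.58.1 in R 4.3.3 (lmFit, eBayes, 7 residual and 2.13 prior degrees of freedom). The two-sided p-values received the Benjamini-Hochberg adjustment over the tested genes, with a threshold of 5%. The scripts were tested on simulated data. Errors of fold changes are standard errors, and those of group values are SD.

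The lipogenic genes, the lists of surrounding genes and the markers were chosen with earlier results of these data known. Named genes were the listed genes in every comparison; of each surrounding list up to 4 genes past 5%, otherwise the 1 with the smallest p; Dbp and Arntl; the 2 highest markers of each list; and the 6 genes most alike in pattern. Where a gene outside this rule is named, the text says so. Alternatives changed the scaling, the filter, the choice of rows, the arrays in the fit and its variance model. Promoter windows came from a RefSeq table (GRCm38.p6) that held 8 of the 10 genes, without Scd1 and Dgat2.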

Additional observations from a re-analysis of the deposited data

How the results depend on the processing

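The results were recomputed under 21 alternative settings, of which 11 left out 1 array and 10 changed the scaling, the filter, the rows, the variance model or the arrays fitted; the interaction was not run on only the groups compared. Leaving out 1 array at a time, the number of lipogenic genes past 5% was 0 to 0 in double KO against Nemo KO, 0 to 1 in double KO against Cxcr6 KO, 0 to 2 in Nemo KO against wildtype, 0 to 2 in Cxcr6 KO against wildtype and 0 to 1 in the interaction, and under the 10 other settings it equalled the reported number in each. Dgat2 in double KO against Cxcr6 KO ran from -1.64 to -1.21 over the 21 settings and passed 5% in 19 (adjusted p 0.00197 to 0.0616). Of 931 recomputed fold changes of the 9 genes, 39 changed sign with no call on either side, 5 passed 5% where the reported value had not, and 2 no longer passed. Of the recomputed values of the named surrounding genes, Dbp and Arntl, 820 kept direction and call, 59 no longer passed 5% and 12 newly passed. A further 4 changed sign with no call on either side. Counts over all genes moved far more. Against 109 genes past 5% in double KO against Nemo KO, leaving out an array gave 19 to 161 and the other settings 11 to 971. Against 1358 in double KO against Cxcr6 KO they gave 116 to 2340 and 929 to 4692, against 29 in Nemo KO against wildtype 0 to 2380 and 0 to 1319, and against 47 in Cxcr6 KO against wildtype 8 to 493 and 0 to 48. For the interaction, with 0, they gave 0 to 232 and 0 to 0. Centring each array on its median shifted the interaction of every gene by 0.14. Deviations of same-numbered arrays from their group means correlated at -0.27 to 0.28 (median 0.06, 15 pairs). Those of differently numbered arrays correlated at -0.42 to 0.29 (median 0.015, 30 pairs). With so few arrays per group mean, these values cannot show whether the replicate numbers pair the arrays. With the replicate block, Dgat2 in double KO against Cxcr6 KO kept its call (adjusted p = 0.0271). The cause of these shifts was not tested. Signals near the ceiling (Scd1) and near the median row (Pnpla3) limit what can be read from both genes.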

Other observations

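Some genes of the surrounding lists, chosen here after their values were seen, varied widely within a genotype. Elovl3, which lengthens saturated long-chain fatty acids, had 13.61, 11.91 and 14.88 in double KO, 15.90, 14.69 and 16.45 in Nemo KO, 15.11, 14.81 and 14.88 in Cxcr6 KO, and 16.02 and 9.18 in wildtype. It ran against the lipogenic genes between the wildtype arrays, where replicate 2 minus replicate 1 was -6.83. Lpin1, a phosphatidic acid phosphatase of triglyceride synthesis, had 14.04, 14.36 and 8.95 in double KO, 10.92, 13.30 and 14.67 in Nemo KO, 15.34, 13.17 and 15.40 in Cxcr6 KO, and 12.04 and 14.34 in wildtype. Its lowest value fell on double KO replicate 3, as did that of Thrsp.

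On the same double KO array, the droplet coat protein Plin2 was 15.91, against 13.80 and 13.30 on the other double KO arrays, and Cidec was 8.52, against 6.38 and 6.38. Plin2 was 13.71, 13.78 and 13.70 in Cxcr6 KO and 14.21 and 13.88 in wildtype. Mki67 was 12.38 on that array, its highest of the 11. These are values of single arrays. They still enter the comparisons, since the limma fit takes the spread of a gene from all arrays. For Cidec in Nemo KO against wildtype, the difference was 1.84 with or without double KO replicate 3. Its adjusted p in limma was 0.0959 with that array, and 0.0359, past the threshold, without it.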
